A study of Arabidopsis thaliana with 12 samples.

Results

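The features described here are 216 transcripts of Arabidopsis thaliana rosettes that were high at night, low in the subjective day, and moved little after a 1 h pulse of white light at either time. They were chosen by measured values out of 22746 array features (probe sets, each made against 1 transcript or a few near-identical ones). Each array was scaled to a 2% trimmed mean of 100, and group means under 20 were raised to 20. A feature was kept where its night control mean was at least 3 times its day control mean and where the pulse over control ratio of means lay between 0.67 and 1.5 both at night and in the subjective day. The annotation used here gives 1 gene for 101 of the 216, several genes for 5, and does not list 110. Genes are named only for the 101, of which 79 are known by their locus number alone.

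All arrays carried RNA from the aerial rosettes of wild type seedlings, ecotype Columbia, 15 days old, raised with 12 h of white light a day, the other 12 h dark, and then kept in constant darkness. The night pulse group received 1 h of white light in the middle of the night and the night control group none. The day pulse and day control groups were the same in the middle of the subjective day, the part of the day that would have been lit. Each group had 3 arrays, the labels do not say that these came from separate plants, and groups follow the sample titles because the circadian hours in the labels (6 for night, 18 for subjective day) run against the usual count. Time of day and time spent in darkness cannot be told apart in this design.

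In plants held in darkness the circadian clock keeps many transcripts cycling between the subjective day and the night, and light reaches genes separately through phytochromes, cryptochromes and photosynthesis. The clock also sets how strongly a gene answers to light at a given hour, which is called gating. Transcripts that differ between night and subjective day and are little moved by a pulse are described here apart from those that a pulse moves more. The values run on between them, and whether they are of different kinds was not tested. Ribosomes, plastid enzymes and the proteins of DNA replication are encoded in whole or large part in the nucleus, so making them needs nuclear transcripts. The arrays measure transcripts, and protein levels were not measured here.

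The deposited trimmed means ran from 65.9 to 176 per array, and log2 signals of replicate arrays correlated at 0.907 to 0.977. For RNA quality, the GAPDH control's signal at the 3' end over that at the 5' end was 9.29 for replicate 1 of the day pulse and 8.75 for replicate 2 of the day control, and 2.16 to 5.16 elsewhere. The like ratio for actin did not single out these arrays, at 16.3 and 27.6 in a range of 13.5 to 37.1, with the highest on night pulse replicate 3. The leaf markers with a named feature were high on every array, with LHCB4.1, LHCB4.2 and RCA at scaled signals of 1233 to 10340. PYK10, a root marker, had 322 to 1558, and the other root markers listed had no named feature. GI, a clock gene known to peak late in the day, had means of 140 in night pulse, 7.79 in night control, 959 in day pulse and 243 in day control arrays, so its controls were high in the arrays titled subjective day, and its level moved with light on the same arrays on which the 216 features were chosen for little response.

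The rule cut a small corner out of the night-high transcripts. Of 1116 features with a night control mean at least 3 times the day control mean, 812 were within the bounds at night but only 262 were within them in the subjective day, and 216 were within both. Among the 900 night-high features left out, the day pulse ratio was over 1.5 in 844 and under 0.67 in 10, and the night pulse ratio was over 1.5 in 228 and under 0.67 in 76. The features that were instead high in the subjective day numbered 743, and 61 of them lay within the same bounds. The plot of the pulse ratios shows the members as the lower edge of a cloud that extends upward, and the subjective day bound removed far more features than the night bound.

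**Figure D1:**
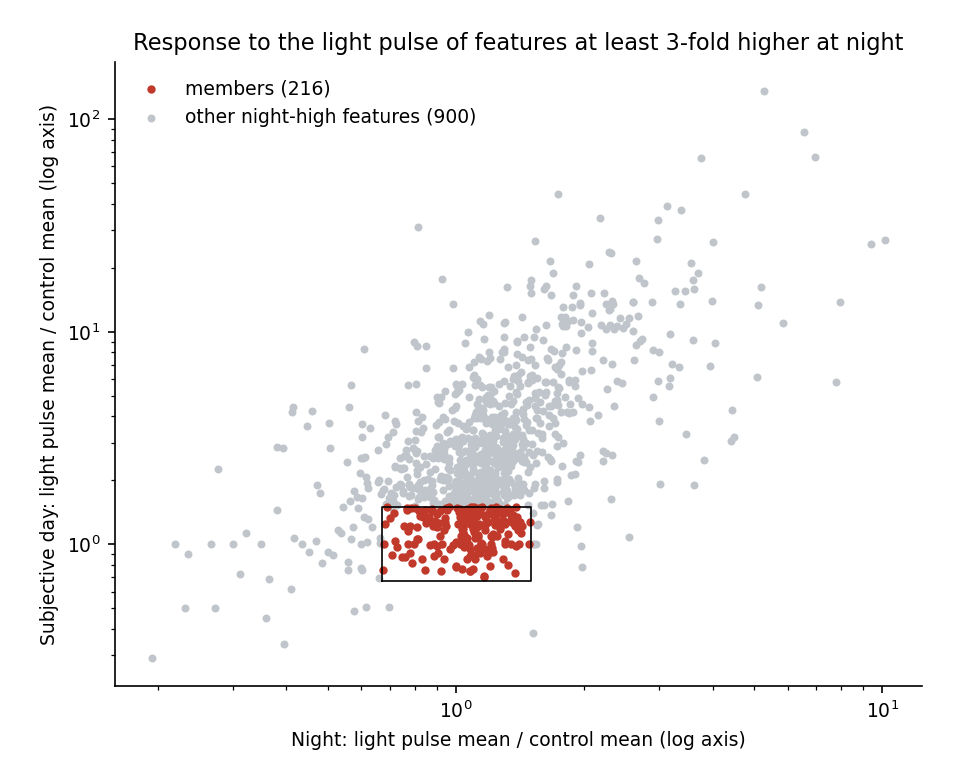
Each point is a night-high feature, with its night pulse mean over night control mean on the horizontal log axis and its day pulse mean over day control mean on the vertical log axis; the square marks the bounds of 0.67 and 1.5. The 216 members fill the square, and most of the other 900 points lie above it.

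The members nearest to the bounds differed from features outside by little. AT3G14740 and AT3G14410 were inside at night over day control ratios of 3.02 and 3.02, and AT4G20760 and AT4G29520 were outside at 2.99 and 2.99. For the day pulse ratio, AT5G11240 and AGL87 were inside at 1.499 and 1.497, and AT1G06830 and AT3G07640 were outside at 1.503 and 1.518. At the upper night bound AT1G73620 was inside at 1.49 and AT1G53070 outside at 1.55, and at the lower night bound DRT100 was inside at 0.67 and AT2G18910 outside at 0.62. At the lower day bound AT3G53190 was inside at 0.70 and the nearest named feature outside, AT3G61100, was at 0.51. Many members therefore sit on a continuous distribution, with 91 of the 216 at a night over day ratio under 3.5 and 120 at a day pulse ratio of 1.2 or more.

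Across the members the night control mean was 3.68 times the day control mean in the median, from 3.00 to 18.7, against a median of 1.10 over the 13773 features tested. The ratio was 4 or more in 85 members, 5 or more in 32 and 10 or more in 4. The night pulse ratio had a median of 1.08, against 0.97 over all features, and the day pulse ratio a median of 1.22, against 1.06. These values chose the members and are given as a description. On whole rosettes, fewer cells that express a gene and less of its RNA per cell cannot be told apart.

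The levels by array restate the rule, which bounded the pulse ratios of the members and left out 844 of the 900 others for a day pulse ratio over 1.5; they are given as a description of its size. Night pulse means over day pulse means had a median of 3.49 in the members and of 1.78 in the 900 others, and of 0.94 over all features. Expressed as a percentage of each feature's night control mean, the members' median was 104 to 107% on the 3 night pulse arrays and 94.3 to 102% on the 3 night control arrays. It was 28.3 to 30.8% on the day pulse arrays and 24.7 to 25.9% on the day control arrays. The other night-high features started from a like level in the day controls, 19.02 to 22.9%, and stood at 60.6 to 64.9% on the day pulse arrays.

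**Figure D2:**
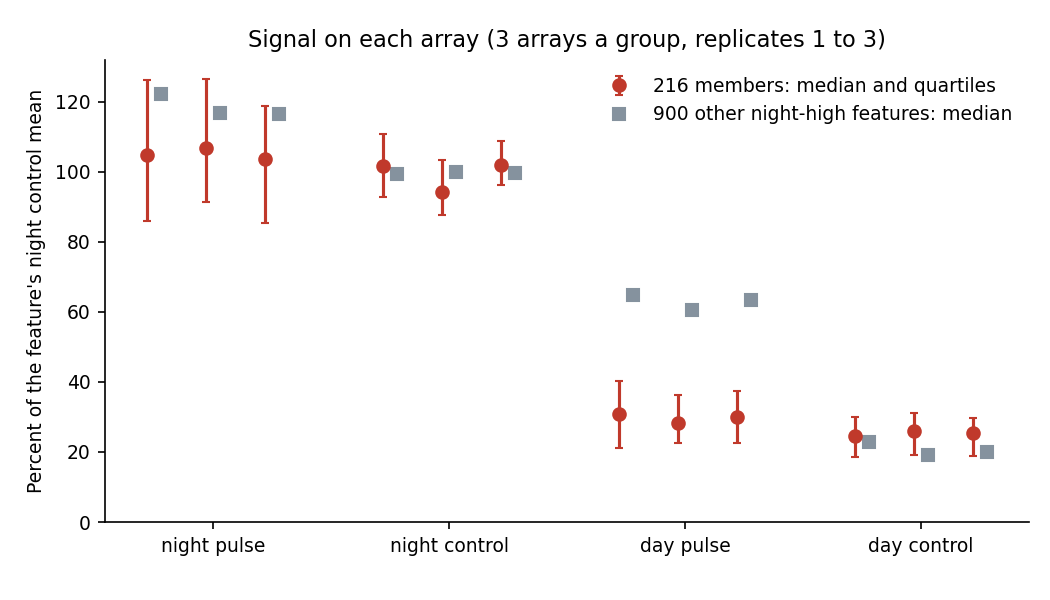
Signal on each of the 12 arrays as a percentage of the feature's night control mean, with members as the median and quartiles of 216 features and the other 900 night-high features as a median. Both sets are near 20 to 25% in the day controls, and on the day pulse arrays the members are at 28.3 to 30.8% and the others at 60.6 to 64.9%, a gap that the day pulse bound of the rule sets.

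The choice was repeated without 1 replicate of every group and read on the 4 arrays left out, which the choice had then not used. Leaving out replicate 1, 2 or 3 chose 212, 243 and 215 features. On the arrays left out the night control was above the day control in 212, 241 and 215 of them. A difference of at least 3-fold was met by 75, 63.4 and 74.9%, against 4.97, 6.24 and 5.88% of all features and 56.1, 75.7 and 82.6% of the night-high features that were not chosen.

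The bound on the day pulse was met on the arrays left out by 46.7, 62.1 and 67.4% of the chosen features. It was met by 23.9, 20.4 and 14.6% of the night-high features that were not chosen, and by 65.3, 64.9 and 66.9% of all features. The bound on the night pulse was met by 84.0, 71.6 and 90.2% of the chosen features, 63.9, 59.5 and 62.2% of the others, and 81.2, 81.9 and 80.1% of all. The chosen features thus met each pulse bound on held-out arrays more often than the other night-high features in all 3 repeats. Those others were set apart because they had missed a pulse bound on the remaining arrays. The difference therefore shows only that pulse ratios repeated in part between arrays. Against all features, many of which are dim and have a ratio of 1 after means were raised to 20, the chosen features met the day bound less often in 2 repeats and slightly more often in the other. They met the night bound more often than all features in 2 repeats and less often in the repeat without replicate 2. All 3 criteria together were met by 27.8, 28.4 and 42.3% of the chosen features, against 7.41, 6.78 and 7.95% of the other night-high features. With a single array per group on the held-out side there is no test of these shares.

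**Figure D3:**
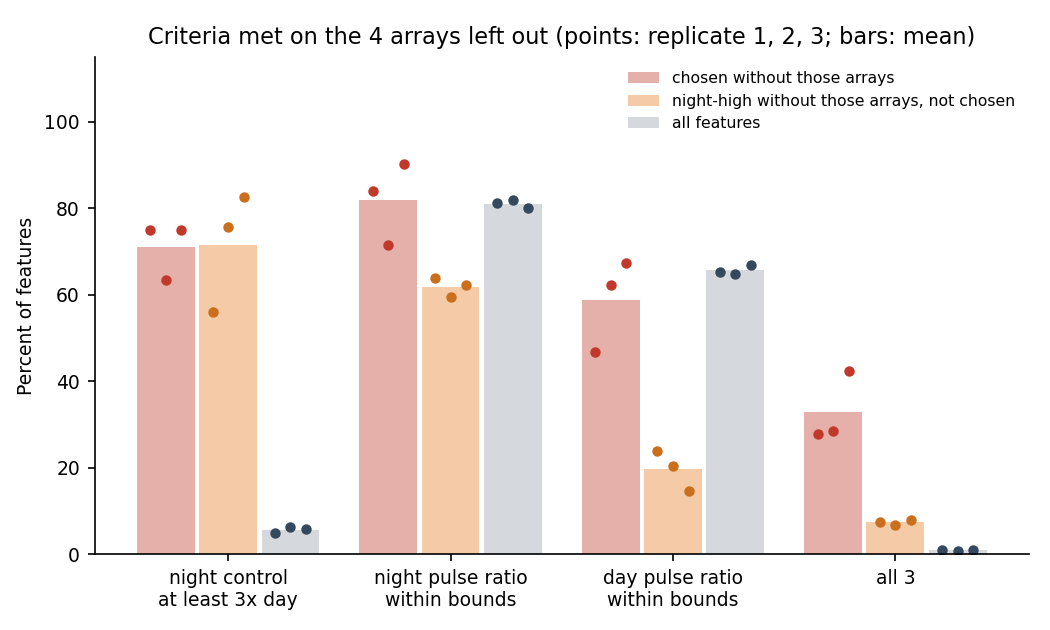
Percent of features that met each criterion on the 4 arrays (1 per group) that were left out of the choice; points are the repeats without replicate 1, 2 and 3, bars their mean. In every repeat the chosen features met the day pulse bound more often (46.7 to 67.4%) than night-high features that were not chosen (14.6 to 23.9%). The latter had missed a pulse bound on the other arrays. Of all features 64.9 to 66.9% met the day pulse bound.

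A limma fit over all 13773 tested features, with Benjamini-Hochberg adjustment and a threshold of 0.05, gives the background for these counts, and nothing is read from the members' share because the rule used the same contrasts. Night control over day control was called higher in 214 of the 216, where 30.8% of all features were. The night pulse was called in 0 members in either direction, against 14.7% of all features. The count was 0 to 13 under the other settings tried, where 6.3 to 24.1% of all features were called. The day pulse was called in 22, all of them higher, against 44.9% of all features. The difference between the pulses was called in 3, against 16.8% of all features.

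A ratio between 0.67 and 1.5 is not the same as no response. The 95% interval of the pulse effect lay within a factor of 2 in 192 members at night and 167 in the subjective day, and within a factor of 1.5 in 46 and 34. The rule had bounded the ratios inside these intervals, and the same counts over all features were not made. The intervals had a median width of 1.00 log2 in the members and 1.03 over all tested features. The 22 called in the subjective day had day pulse ratios of 1.364 to 1.499 and include named genes of several kinds, among them ribosomal protein genes AT3G07110 and AT5G61170, assembly factors AT4G15770 and AT5G11240, and the plastid genes AT1G66430 and AT1G54500. The working name of these genes, night-high genes that ignore light, is therefore stronger than the values. The count fell to 8 without day control replicate 3, 9 without day pulse replicate 3, 10 without day control replicate 2 and 14 without day pulse replicate 2, and to 0 without scaling. In the same order, 36.6, 39.3, 38.3, 40.6 and 25.7% of all features were called in these fits.

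The same arrays chose the members, so the separation of their night and day levels was built in and is a description. Every night control array was above every day control array in 214 members, against 36.7% of all tested features, and every one of the 6 night arrays was above every one of the 6 day arrays in 211, against 13.4%. On day pulse replicate 1, the array with the highest GAPDH ratio but a low actin ratio, 59 members were over 1.5 times the day control mean and 15 under 0.67 times it. On day pulse replicates 2 and 3 these counts were 28 and 5, and 30 and 10. The part of RNA quality in these values was not tested.

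The widest gap was that of scpl35 (AT5G08260), a serine carboxypeptidase-like protein of a family that includes secreted peptidases and acyltransferases. It had scaled signals of 633, 632 and 392.3 in night pulse arrays and 521, 441 and 506 in night control arrays. In day pulse arrays it had 38.9, 35.8 and 35.7, and in day control arrays 37.5, 22.2 and 19.02. The lowest night array was 10 times the highest day array or more, and the pulse and control arrays overlapped at both times. Its night control mean was 18.7 times its day control mean.

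AT3G22240 had 1673, 1728 and 2169 in night pulse arrays, against 985, 2892 and 1098 in night control arrays. It had 146, 103 and 88.8 in day pulse arrays, against 72.1, 111 and 89.0 in day control arrays. The night control over day control ratio was 18.3 and rests in part on night control replicate 2, which was far above the other night controls; all 6 night arrays were still well above all 6 day arrays. The 2 members that followed at ratios over 10 have no gene in the annotation used here.

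The other named members with the widest gaps were taken from those with both day means of 20 or more. Several encode proteins of the cell surface or the plastid. AT1G29980, a cell wall protein of unknown function, averaged 154 ± 33.5 in night pulse and 184 ± 15.6 in night control arrays (SD, n = 3), against 33.1 ± 7.74 in day pulse and 23.9 ± 4.43 in day control arrays. RALFL24, a secreted signalling peptide of the RALF family, averaged 133 ± 26.8 and 151 ± 34.3 in night pulse and night control arrays, with 39.1 ± 3.85 and 27.3 ± 7.58 in day pulse and day control arrays. AT4G25870, a glycosyltransferase family gene, had 85.1, 83.3 and 164 in night pulse arrays, 121, 140 and 137 in night controls, 27.6, 31.1 and 26.7 in day pulse arrays and 19.1, 20.5 and 23.97 in day controls. In all 3 genes the night arrays were above the day arrays with no overlap.

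**Figure D4:**
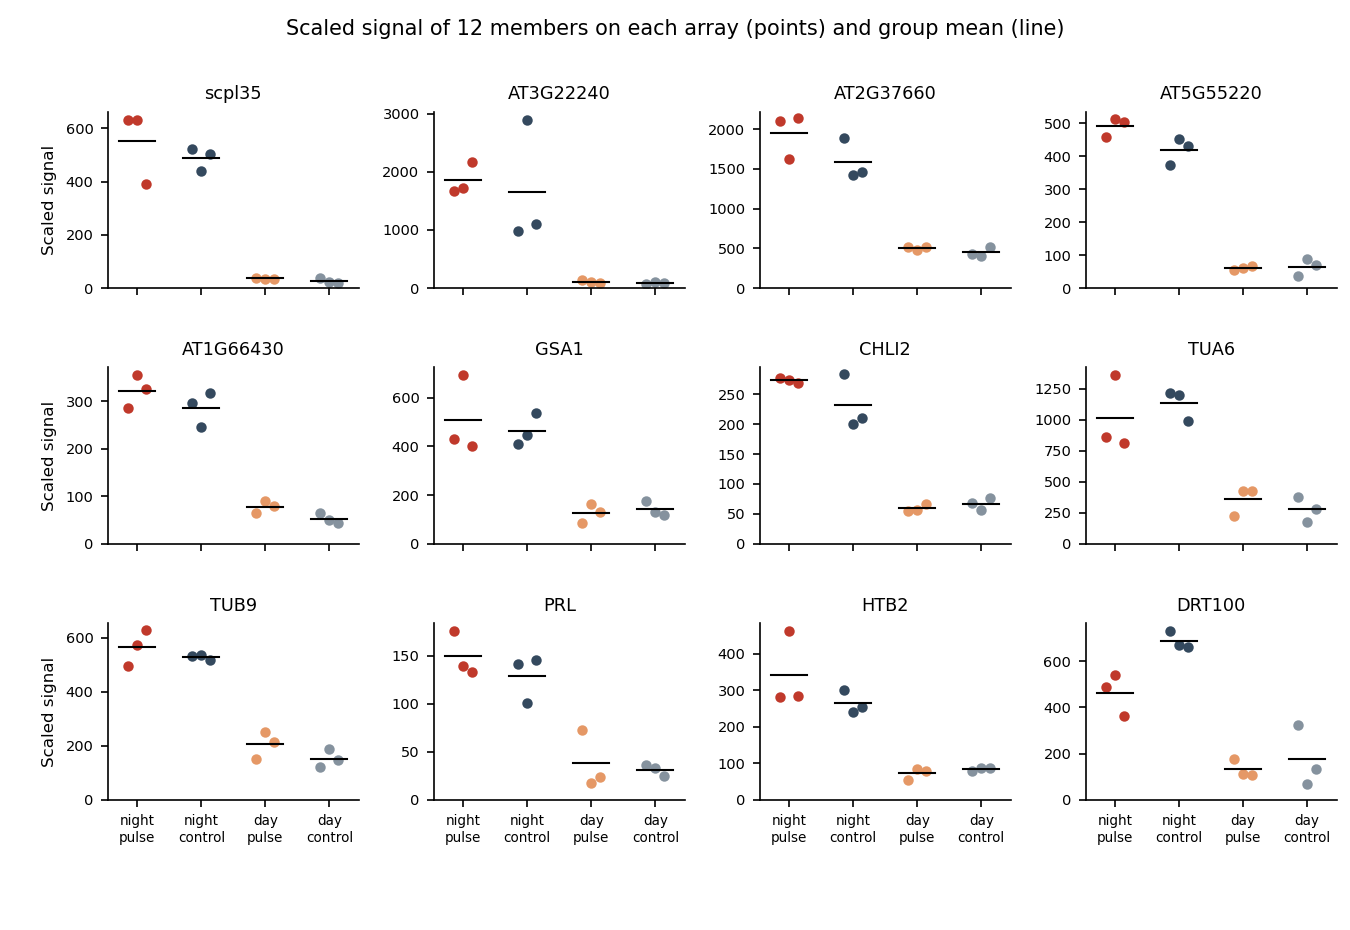
Scaled signal (trimmed mean of 100 per array) of 12 members on each array, with points for the 3 arrays and a line for the mean of each group, with the night groups left of the day groups and each pulse left of its control. In each panel the 6 night points lie above the 6 day points, from scpl35 (18.7-fold between the controls) to HTB2 (3.13-fold).

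Ribosomal protein genes made up 11 of the 101 named members. They were AT4G13170 and AT3G07110 of the L13a family, AT4G00810 and AT2G27710, acidic stalk proteins, AT5G60670, AT4G10450, AT1G77940 and AT2G37600 of the large subunit, and AT5G61170, AT3G10610 and AT5G09510 of the small subunit. All are structural proteins of the cytosolic ribosome, and each has close copies elsewhere in the genome that the same probes may detect. Night control over day control ran from 3.05 to 4.19 in the 11, the night pulse ratio from 1.03 to 1.32 and the day pulse ratio from 0.79 to 1.49.

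AT3G07110 had 1691, 1622 and 1689 in night pulse arrays and 1462, 1242 and 1559 in night controls. In day pulse arrays it had 567, 503 and 440, and in day controls 372, 363 and 373. The pulse arrays were above the controls with no overlap at both times, by much less than the gap between night and day.

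AT4G00810 had 1127, 1049 and 1035 in night pulse arrays against 967, 1110 and 1035 in night controls, and 312, 281 and 324 in day pulse arrays against 253, 261 and 262 in day controls. AT4G13170 had 678, 578 and 633 in night pulse arrays against 554, 443 and 457 in night controls, and 167, 121 and 145 in day pulse arrays against 84.9, 138 and 124 in day controls. AT3G10610 had 559, 687 and 630 in night pulse arrays against 586, 417 and 556 in night controls, and 132, 138 and 122 in day pulse arrays against 110, 217 and 168 in day controls. The pulse and control arrays of AT4G00810 overlapped at night alone, those of AT4G13170 in the subjective day alone, and those of AT3G10610 at both times.

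A list of 217 cytosolic ribosomal protein genes, drawn up after the members had been seen, had 125 with a named feature. Of the 109 with a night control mean of 60 or more, the least that could have met the rule, 17.4% were night-high and 10.09% were members. Of all 4722 features with 1 gene and such a mean, 10.99% were night-high and 2.14% were members. Over the 125 the median night over day control ratio was 1.59, against 1.0 over all features with 1 gene. At night control means of 60 or more these medians were 1.76 and 1.15. The 11 members, chosen on this ratio, are among the 125. Of the 112 that were tested, 98 were higher at night, where 57.3% of all tested features, not matched for signal, were. The counts were 101 of 111 under quantile normalization, 89 of 116 with arrays scaled to a common median and 109 of 112 without scaling, beside 49.99, 41.2 and 71.5% of all features. In the subjective day the pulse was above the control in 45 of 112 on the main scale, where it was in 54.3% of all features. Under those 3 scalings it was above in 48, 20 and 43, beside 47.6, 39.2 and 54.6% of all features.

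The night-high ribosomal protein genes lay on both sides of the rule's day pulse bound of 1.5, which sets the split described here. Of the 19 that were night-high, 11 were members and the other 8 had day pulse ratios over 1.5, from 1.69 to 4.31. AT3G57490, of the small subunit, had means of 307 in night pulse and 198 in night control arrays, against 130 in day pulse and 30.2 in day control arrays. AT3G06680, of the large subunit, had 872 and 599 at night with and without the pulse, against 256 and 105 in the subjective day. Among all night-high features with 1 gene, 101 of 519 were members. The count of 11 was 12 under quantile normalization, 3 with arrays scaled to a common median and 22 without scaling, so it depends on how the arrays are brought to a common level.

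**Figure D5:**
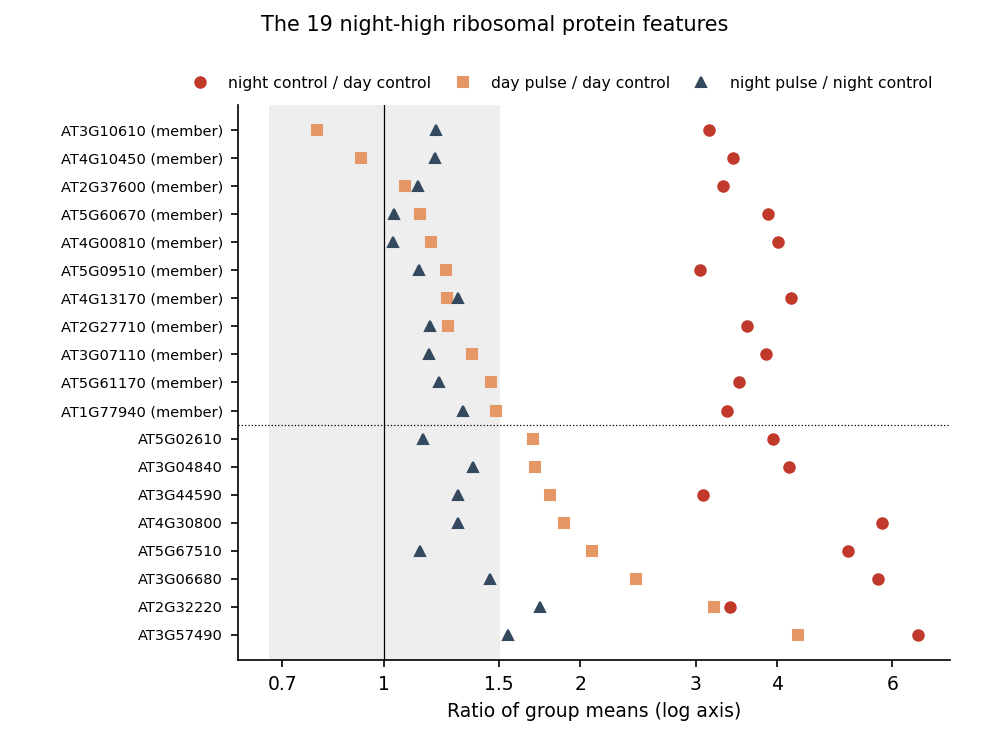
Ratios of group means for the 19 ribosomal protein features that were at least 3-fold higher in night controls than in day controls, on a log axis; the shaded band marks 0.67 to 1.5 and the dotted line parts the 11 members from the 8 others. The day pulse ratio runs from 0.79 to 1.49 in the members and from 1.69 to 4.31 in the others, while the night pulse ratio lies between 1.03 and 1.73 throughout. The rule's bound of 1.5 sets these day pulse ranges apart.

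Ribosome assembly genes were also present, with 4 named members, and the share of such genes among all named features was not counted. AT4G12600, an RNA-binding protein of the L7Ae family, averaged 470 ± 5.08 in night pulse and 452 ± 42.5 in night control arrays, against 96.99 ± 15.6 in day pulse and 82.3 ± 12.8 in day control arrays (SD, n = 3). AT1G52930, a Brix domain protein of large subunit assembly, averaged 352 ± 95.7 and 290 ± 29.6 in night pulse and night control arrays, against 90.7 ± 8.93 and 94.3 ± 7.13 in day pulse and day control arrays. AT4G15770, a homologue of yeast NIP7, had a night over day control ratio of 3.62 and a day pulse ratio of 1.47, and AT5G11240, a WD-repeat protein of the nucleolus, 3.12 and 1.499. The first and second stood far from the day bound and the others near it.

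A group of plastid proteins held a further 11 named members, without the chlorophyll pathway members below, and is no full count of plastid proteins. The 11 had night over day control ratios of 3.05 to 6.403. They were recognised by hand after the members had been seen, and the share of plastid proteins among all named features was not counted. AT5G55220, a trigger factor type chaperone that helps new plastid proteins to fold, had 457, 511 and 502 in night pulse arrays and 374, 450 and 430 in night controls. It had 56.0, 62.1 and 67.9 in day pulse arrays and 37.7, 89.0 and 69.1 in day controls. The night pulse arrays were above the night controls with no overlap, and in the subjective day the controls lay on both sides of the pulse arrays.

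AT1G66430, a fructokinase family gene, had 287, 356 and 326 in night pulse arrays against 297, 246 and 318 in night controls, and 64.5, 91.3 and 79.8 in day pulse arrays against 65.7, 50.3 and 44.7 in day controls. UPP, an uracil phosphoribosyltransferase that salvages pyrimidines, averaged 278 ± 31.2 in night pulse and 225 ± 33.0 in night control arrays, against 56.1 ± 24.6 in day pulse and 42.6 ± 12.2 in day control arrays. AT2G24060, a plastid translation initiation factor, averaged 516 ± 45.1 and 570 ± 55.9 at night with and without the pulse, against 159 ± 56.3 and 161 ± 24.6 in the subjective day. In all of these the arrays with and without the pulse overlapped at both times except in UPP at night, and night and day arrays did not overlap.

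AT1G54500, a rubredoxin-like protein, averaged 1212 ± 242 in night pulse and 1185 ± 26.3 in night control arrays, against 514 ± 118 in day pulse and 351 ± 7.39 in day control arrays. Its 3 day pulse arrays were all above its day controls, while its night arrays overlapped. AT3G23940, dihydroxyacid dehydratase of branched-chain amino acid synthesis, had a night over day control ratio of 4.28 and pulse ratios of 1.12 at night and 0.96 in the subjective day. AT2G42130, a fibrillin family protein of plastid lipid bodies, had 4.19, 1.26 and 1.23.

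The chlorophyll pathway had 2 named members, and the share of its genes among all named features was not counted. GSA1, glutamate-1-semialdehyde aminomutase, an early enzyme of the pathway, had 432, 694 and 402 in night pulse arrays against 409, 449 and 538 in night controls, and 85.8, 163 and 132 in day pulse arrays against 178, 130 and 118 in day controls. CHLI2, a subunit of the magnesium chelatase that commits the pathway to chlorophyll, had 277, 273 and 269 in night pulse arrays against 283, 199 and 211 in night controls, and 54.8, 57.0 and 66.5 in day pulse arrays against 67.9, 57.3 and 76.4 in day controls. The pulse and control arrays of both genes overlapped at both times, and their day pulse means were 0.90 and 0.88 of the day control means.

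Genes of chromosomes and the cytoskeleton were represented by 5 and 2 named members. The share of chromosome genes among all named features was not counted. PRL, the MCM7 subunit of the helicase that opens DNA for replication, had 176, 139 and 133 in night pulse arrays against 142, 101 and 146 in night controls, and 72.7, 18.0 and 24.2 in day pulse arrays against 36.1, 33.0 and 24.7 in day controls. Day pulse replicate 1 stood above the other day arrays. HTB2, a histone H2B, averaged 342 ± 104 in night pulse and 265 ± 32.3 in night control arrays, against 72.1 ± 15.8 in day pulse and 84.6 ± 4.94 in day control arrays.

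ASF1B, a histone chaperone, and POLA3, a subunit of the DNA primase complex, were low in the subjective day, with means of 15.0 and 12.8 in day pulse arrays and 14.9 and 14.4 in day controls. Their night pulse and night control means were 55.6 and 69.9 for ASF1B and 82.6 and 61.4 for POLA3, and the night pulse and night control arrays of each gene did not overlap. TSO1, a regulator of cell division in meristems, had a night over day control ratio of 3.64. The tubulin genes TUA6 and TUB9 had ratios of 4.07 and 3.47, with pulse ratios of 0.89 and 1.07 at night and 1.29 and 1.35 in the subjective day. Of 7 alpha or beta tubulin features tested, 3 were night-high and 2 of these were members, where 7.01% of the 7404 tested features with 1 gene were night-high and 1.36% were members.

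Besides scpl35, the serine carboxypeptidase-like genes SCPL27 and SCPL45 were members, with night over day control ratios of 3.95 and 3.36. Of 29 features of this family 14 were tested, 5 were night-high and 3 were members, beside the same 7.01% and 1.36%; with so few features nothing is read from either family's count. Of 8 named members that encode cell wall or secreted proteins, ratios ran from 3.08 to 7.71. The share of such proteins among all named features was not counted. SAH7, a pollen allergen-like secreted protein, averaged 460 ± 53.5 in night pulse and 380 ± 77.2 in night control arrays, against 103 ± 29.8 in day pulse and 94.9 ± 5.45 in day control arrays. AT3G53190, a pectate lyase family gene, averaged 278 ± 37.5 and 239 ± 46.0 in night pulse and night control arrays, against 39.9 ± 13.3 and 56.7 ± 15.5 in day pulse and day control arrays. Its day pulse ratio of 0.70 was the lowest among the members.

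The other extremes were held by genes of mixed kinds. DRT100, a leucine-rich repeat protein, had 487, 542 and 362 in night pulse arrays against 731, 671 and 662 in night controls, a ratio of 0.67 with no overlap. In the subjective day it had 179, 110 and 107 after the pulse against 324, 66.9 and 133 without it, and it kept its place among the members in 6 of the 12 repeats that each left out an array. AT1G29250, an Alba-type nucleic acid binding protein, had pulse ratios of 1.38 at night and 1.496 in the subjective day, and all pulse arrays were above all controls at both times. AGL87, a MADS box factor, had 7.14, 41.2 and 53.6 in day pulse arrays against 14.7, 39.4 and 13.97 in day controls, so its day pulse ratio of 1.497 joins arrays that differed several-fold among themselves.

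A low level in the subjective day limits what can be said of the pulse there. The day control mean was under 20 in 38 members, and both day means were in 14, for which the day pulse ratio is 1 by construction and gives no measure of a response. The night over day ratio of the 38 is a lower bound. Among the 14 are ASF1B, POLA3, AT3G02120, AT4G15830, AT3G52170, AT5G57700, AT5G59330 and AT3G14740. AT5G59330, of the lipid transfer protein family, had 82.9, 95.98 and 63.5 in night pulse arrays and 56.6, 50.4 and 79.2 in night controls, with 0.61 to 9.32 on the 6 day arrays. AT1G56050, a GTP-binding protein, was called for the day pulse from 5.31, 38.0 and 46.4 in pulse arrays against 18.8, 2.44 and 17.1 in controls, which overlap.

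Of the 216, 2 were not separated by the night and day controls. Feature 264953_at had 40.8, 38.6 and 186 in night pulse arrays and 29.3, 20.7 and 147 in night controls, against 32.6, 29.3 and 23.2 in day pulse arrays and 21.5, 21.1 and 19.5 in day controls. Feature 262128_at had 74.0, 110 and 575 in night controls against 12.96, 90.5 and 147 in day controls. In both, night control replicate 3 carried the mean over the bound, and neither was called by limma. Neither has a gene in the annotation used here.

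The membership of single genes depended on how the arrays were scaled. With every array scaled to a median of 50, the pulse over control difference in the subjective day moved by -0.37 log2 in the median feature and the night over day control difference by -0.40, and 170 features met the rule, of which 82 were among the 216. Under quantile normalization these medians moved by -0.11 and -0.14, and 206 features met it, 140 of them shared. Without scaling the control difference moved by 0.37, and 460 met it, 175 shared. On the common-median scale the members' day pulse effect had a median of -0.05 log2, against 0.25 on the main scale, with 91 and 163 of the 216 above 0. All 216 were higher in night controls than in day controls under each of these scalings.

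A core of 38 features met the rule under each of the 3 other scalings and in each of the 12 repeats without an array, and 15 of them have a named gene. These are AT5G55220, ASF1B, AT4G13170, AT4G12600, SAH7, AT4G00810, AT3G52170, AT3G22210, AT3G23940, AT3G04650, AT3G02120, AT1G52590, AT1G11330, AT1G28710 and AT2G32380. They hold 2 of the 11 ribosomal protein genes. Of those named, ASF1B, AT3G52170 and AT3G02120 had both day means under 20 on the main scale. Their day pulse ratio is then 1 by construction, so their place in the core is no measure of a response in the subjective day. Leaving out day pulse replicate 1 and day control replicate 2 together gave 240 features, of which 160 were among the 216, and 16 ribosomal protein genes.

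No clock gene with a named feature was among the members. Of 30 clock genes listed, 5 had a named feature and none of these was night-high by the rule, so for the other 25 nothing can be said. COR27, a cold-induced gene that acts in the clock, came closest, with means of 21.7 in night pulse and 142 in night control arrays, against 11.5 in day pulse and 63.7 in day control arrays. Its night over day control ratio was 2.23, and its pulse ratios of 0.15 and 0.31 lay far below the bounds that the members met.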

How the data were processed

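The deposited table gives 1 intensity per probe set and array, made by the authors with MAS5 per the submitters' processing notes; for its version, settings and scaling, nothing is given in the sources used here. Here each of the 12 arrays was scaled to a 2% trimmed mean of 100 over the 22746 probe sets that are not controls (64 controls were left out), which is the scale of the rule that chose the members. For tests, scaled signals were raised to at least 20 and taken to log2, and the 13773 probe sets with a mean of 20 or more over all arrays, every member among them, were fitted with limma 3.58.1 in R 4.3.3 (4 groups in 1 fit, trend, Benjamini-Hochberg over all, 8 residual degrees of freedom). A run on simulated arrays used independent spread and changes larger than the pulse bounds. It is no check of effects as small as those of the members. The p-values of the fit reflect only how far arrays of a group differ, which may be technical, and 3 arrays a group limit the precision. No detection calls were used.

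Members, gene lists and role groups were chosen with earlier results of these data known, and the role groups and the ribosomal protein list after the members had been seen. Names come from the platform's annotation and the TAIR10.1 gene set, both incomplete. Genes named are those with the widest gaps among members with both day means of 20 or more, and those with the highest night control means. The rest have both day means under 20, a place near a bound, the most extreme pulse ratios, or a place in the role groups. Promoter motifs and genome coordinates were not analysed here, and gene order was used only to list neighbouring members (AT3G22210 and AT3G22240 were 5 genes apart). Alternatives were other scalings, floors, filters, bounds, fits and arrays left out.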

Additional observations from a re-analysis of the deposited data

Results flagged for a closer look

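In 3 members the difference between the pulse's effects at night and in the subjective day passed limma's threshold. The rule chose the members on these same ratios, so the values are a description, and the count of 3 was 1 under quantile normalization, 0 without scaling and 11 with a common median. Of all features, 15.3, 3.52 and 19.6% were called under these settings. AT3G14330, a pentatricopeptide repeat protein, had 68.8, 80.1 and 79.2 in night pulse arrays against 107, 99.9 and 112 in night controls, and 44.3, 41.6 and 44.9 in day pulse arrays against 28.2, 29.3 and 35.7 in day controls. The groups did not overlap at either time, lower after the pulse at night and higher in the subjective day, and the effect at night minus that in the subjective day was -0.98 ± 0.26 log2 (SE, n = 3 arrays a group). The unlisted features 265773_at and 248242_at had differences of -0.87 ± 0.24 and -0.79 ± 0.25. Their means were 271 and 337 in night pulse arrays against 338 and 398 in night controls, and 118 and 158 in day pulse arrays against 79.6 and 108 in day controls. Over all features 16.8% were called for this difference.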

How the results depend on the processing

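The number of members depends on the rule's own thresholds. It was 799 and 85 for a night over day ratio of at least 2 and 4, 78 and 459 for tighter (0.8 at the lower end) and wider (0.5 to 2) pulse bounds, 460 without scaling, and 182 to 243 with single arrays left out. Counts of 170 to 256 under the other scalings, the floors of 10 and 40, geometric means and the removal of both arrays with high GAPDH ratios were within 1.5 times of the 216.

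Members called for night over day control stayed between 207 and 215 under every fit, where 27.7 to 64.8% of all features were called in either direction. For the pulse at night the count of 0 became 3 with quantile normalization, 13 with a floor of 40, 4 without a filter, 7 with array weights, 6 with only the groups compared, 2 without both high-GAPDH arrays, and 0 to 2 with single arrays left out (2 without night pulse replicate 2). In the same order, 14.4, 13.6, 7.17, 24.1, 18.6, 20.3 and 8.99 to 18.7% of all features were called, beside 14.7% in the main fit. For the pulse in the subjective day the count of 22 became 0 without scaling, 14 without a filter, 65 with array weights, 3 with only the groups compared, and 8 to 33 with single arrays left out. The shares of all features called in these fits were 25.7, 23.8, 60, 34.1 and 36.6 to 46.9%, beside 44.9% in the main fit. For the difference between pulses the count of 3 became 1 with quantile normalization, 11 with a common median, 0 without scaling, 7 with a floor of 40, 25 with array weights and 11 without both high-GAPDH arrays. It ran from 1 (without night control replicate 2 or 3, or day control replicate 3) to 10 (without day pulse replicate 1), with 9 without day control replicate 1. Of all features, 15.3, 19.6, 3.52, 15.9, 36.8 and 18.4% were called in the fits first listed for this difference. With single arrays left out the share was 11.8 to 23.1%, beside 16.8% in the main fit. The causes were not tested. The share of held-out features that kept a 3-fold difference, 70.8% over the 3 repeats, was 64.7 to 74.6% under the other scalings and floors, alternatives chosen after seeing the data, as were the counts of ribosomal protein genes under other settings (2 to 33).

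Deviations from the group means correlated at -0.12 to 0.50 between arrays of the same replicate number, over 0.1 in 9 of 18 pairs. These values do not settle whether the numbers pair the arrays, and the main fit did not pair them. With the replicate block the counts for the 4 comparisons were 214, 0, 28 and 5, where 54.0, 16.4, 47.8 and 19.2% of all features were called. In the main fit these shares were 51.4, 14.7, 44.9 and 16.8%. The promoter motif comparison was not run because no promoter sequence was used here. Dim signals in the subjective day, under 20 in the control mean of 38 members, limit what can be said of the pulse there.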
